A study of Rattus norvegicus with 6 samples.

Results

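Transcripts of complement components and complement receptors were followed in rat heart muscle 6 h after a coronary artery was tied. The genes were named by symbol as C1qa, C1qb, C1qc, C1s, C2, C3, C3ar1, C5ar1 and Cfb, and a gene was measured where the RefSeq accession of a probe mapped to it. Of these 9 genes, 8 had a probe, 1 each, among 13876 genes named in this way on the array. C5ar1 was not analysed here. All 8 passed the filter on dim probes, which keeps a probe if 1 group or both were well above background on 3 of 3 arrays, and C3ar1 passed it only through the border zone.

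The border zone group consisted of 3 samples from male Wistar rats whose left anterior descending coronary artery was ligated. Tissue at the edge of the infarct was located by a double stain with TTC and EB and taken at 6 h (arrays M17, M24 and M25). The sham group consisted of 3 samples of control myocardium from male Wistar rats after a sham operation, taken at the same time (arrays C4, C5 and C6, which are array names and not complement proteins). Ages are not given in the sources used here, and the labels name no drug. Levels below are normalised log2 signals, that is, log2 of the background-subtracted spot signal minus the 75th percentile of the array, so that 0 is that percentile. Probes differ in brightness, so the level of a gene is compared between arrays and not with that of another gene. Sums over marker lists, and the share of a gene in them, are weighted towards bright probes. Border zone and sham were compared by limma over 17930 probes with Benjamini-Hochberg adjustment, and a probe passed at an adjusted p below 0.05.

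Several arrays stood apart. The 3 border-zone arrays and sham C4 were scanned together, and sham C5 and C6 each came from another scan, so comparisons with C4 alone are given beside the pooled ones. Between 74.3% and 78.3% of probes were well above background on the border-zone arrays, against 73.7% on C4, 51.0% on C5 and 52.4% on C6. Markers of the central nervous system were bright on C5 and C6, and over the 14 measured the level of C4 minus the mean of C5 and C6 had a median of -3.80. Of the 14, 3 were below background on every array, and such genes also gave low values (-2.59 for Colec10, -2.61 for C8a). The median therefore mixes signal with the floor. The 7 markers well above background on every array gave -5.57 (Gfap) to -1.27 (Mobp). Over the 8 complement genes, 0 of which were below background throughout, the same difference had a median of 0.18, beside -0.01 over all probes tested. It ran from -0.23 (C2) to 0.86 (C3ar1, not well above background on C5 and C6), with 0.52 for Cfb and 0.37 for C3. Array M25 lay between M17 and M24 for 8 of 8 complement genes and for 70.5% of all probes tested. The same share was 13.3% for M17 and 16.3% for M24, and 22.7% to 49.1% for the sham arrays. Every SE and p with n = 3 takes M25 as a separate sample, which was not tested, so counts without it are given too. The cardiomyocyte markers were well above background on every array, and none of 10 passed in limma (0 at an unadjusted p under 0.05).

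Complement is a cascade of plasma and tissue proteins that tags cells and debris for removal. It is started by C1q bound to antibody, pentraxins or dying cells (the classical pathway, through C1r, C1s, the fourth component and C2), by lectins and ficolins (the lectin pathway), or by spontaneous C3 turnover sustained by factor B (the alternative pathway). All routes converge on the cleavage of C3, whose small fragment C3a and that of the fifth component recruit and activate leukocytes through C3ar1 and C5ar1. The liver makes most plasma complement, while macrophages, fibroblasts and other cells make C1q, C3 and factor B locally, and complement proteins are known to be deposited in infarcted heart muscle.

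Transcripts of C3, the alternative pathway protease Cfb and the C1q chains C1qb and C1qc were 1.68- to 2.05-fold higher at the infarct edge than in myocardium of sham-operated rats. The third C1q chain, C1qa, and the classical pathway protease C2 had no such difference, with log2 fold changes of 0.00 and -0.15. C1s, the protease that C1q activates through C1r, was 1.42-fold higher but did not pass. Of the 8 genes, 4 rose and 0 fell in limma (5 higher and 0 lower at an unadjusted p under 0.05), beside 9.01% of all probes tested that rose and 10.3% that fell (19.3% in either direction). The groups did not overlap for 5 of 8 genes, all higher in the border zone, beside 43.7% of all probes (20.9% higher and 22.8% lower). The median log2 fold change was 0.63 over the 8 genes and -0.03 over all probes. Against sham C4 alone, 1 of 8 passed (C3), beside 15.9% of all probes (8.43% higher and 7.5% lower). Without M25, 0 of 8 passed in limma (4 at an unadjusted p under 0.05), beside 2.83% of all probes (1.59% higher and 1.24% lower). Likewise 0 of 8 passed in limma without M24 (4 at an unadjusted p under 0.05), beside 541 probes higher and 611 lower of 18115. Without C5, 0 of 8 passed in limma (5 at an unadjusted p under 0.05), beside 662 probes higher and 737 lower of 17950. In bulk tissue, more cells of a type and more RNA per cell cannot be told apart.

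**Figure D1:**
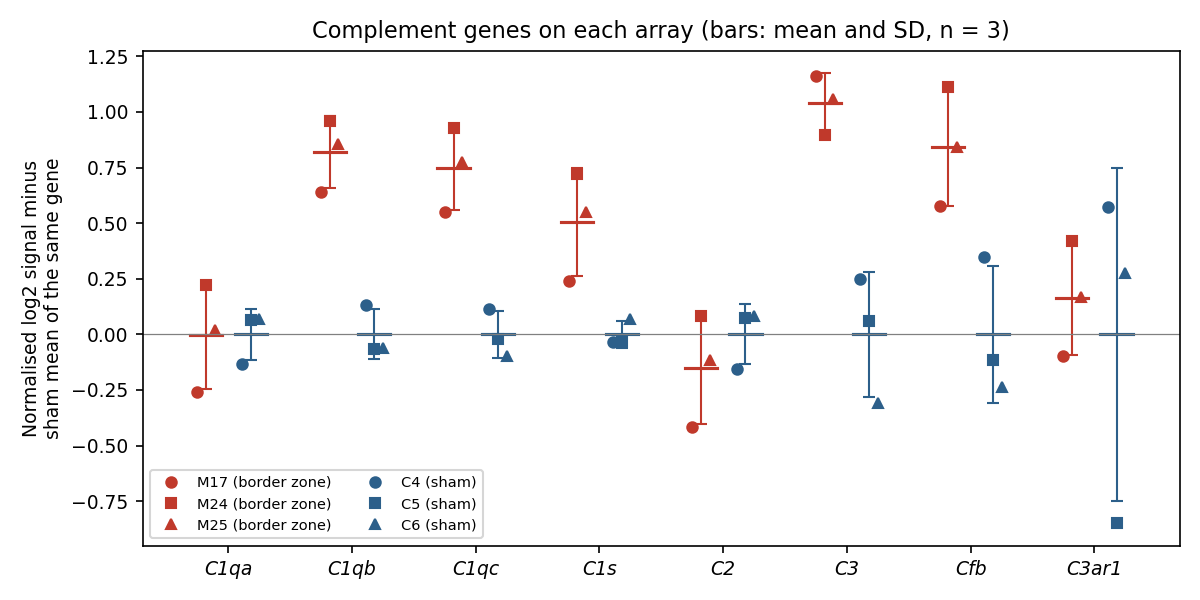
Normalised log2 signal of the 8 measured complement genes on each array, minus the mean of the 3 sham arrays for that gene. Each point is 1 array, the horizontal bars are group means and the error bars are SD (n = 3). All 3 border-zone arrays lie above all 3 sham arrays for C1qb, C1qc, C1s, C3 and Cfb, while the groups overlap for C1qa, C2 and C3ar1.

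C1q is built from equal numbers of A, B and C chains, encoded by C1qa, C1qb and C1qc. They lie in the order C1qa, C1qc, C1qb on the chromosome, with 0 coding genes between each and the next. C1qb had levels of 2.39, 2.71 and 2.60 at the infarct border on M17, M24 and M25, against 1.88, 1.68 and 1.69 on sham arrays C4, C5 and C6. It rose by a log2 fold change of 0.82 ± 0.13 (SE, n = 3 arrays per group, adjusted p = 0.0139 in limma), or 1.76-fold. C1qc had levels of 0.82, 1.20 and 1.04 in the border zone, against 0.39, 0.25 and 0.17 in sham. It rose by 0.75 ± 0.14 (adjusted p = 0.0205 in limma), or 1.68-fold. For both chains every border-zone array was above every sham array, and the highest sham array was C4, the one scanned with the border zone. Against C4 alone the log2 differences were 0.69 ± 0.16 for C1qb (adjusted p = 0.0649) and 0.63 ± 0.18 for C1qc (adjusted p = 0.0909).

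C1qa had levels of 3.64, 4.12 and 3.92 in the border zone, against 3.77, 3.96 and 3.97 in sham. The groups overlapped, with means of 3.89 ± 0.24 and 3.90 ± 0.11 (SD, n = 3 each). The log2 fold change was 0.00 ± 0.16 (adjusted p = 0.988 in limma), with a 95% interval of -0.39 to 0.39, which does not reach the estimates for C1qb and C1qc. The unequal change of the chains was looked at within each array, where a common scale factor cancels. This comparison was chosen after the values were seen. C1qb minus C1qa was -1.25, -1.41 and -1.32 in the border zone, against -1.89, -2.28 and -2.28 in sham, a shift of 0.82. C1qc minus C1qa shifted by 0.75. Neither overlapped between the groups, and for both the exact two-sided permutation test gave p = 0.1, the smallest that 3 against 3 arrays allow (0.15 adjusted over 6 pairs of genes). Against C4 the shifts were 0.56 and 0.51. C1qc minus C1qb, in contrast, overlapped between the groups and shifted by -0.07 (exact permutation p = 0.2, 0.24 adjusted). With 3 arrays a group, no such test could pass, so these shifts are a description.

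**Figure D2:**
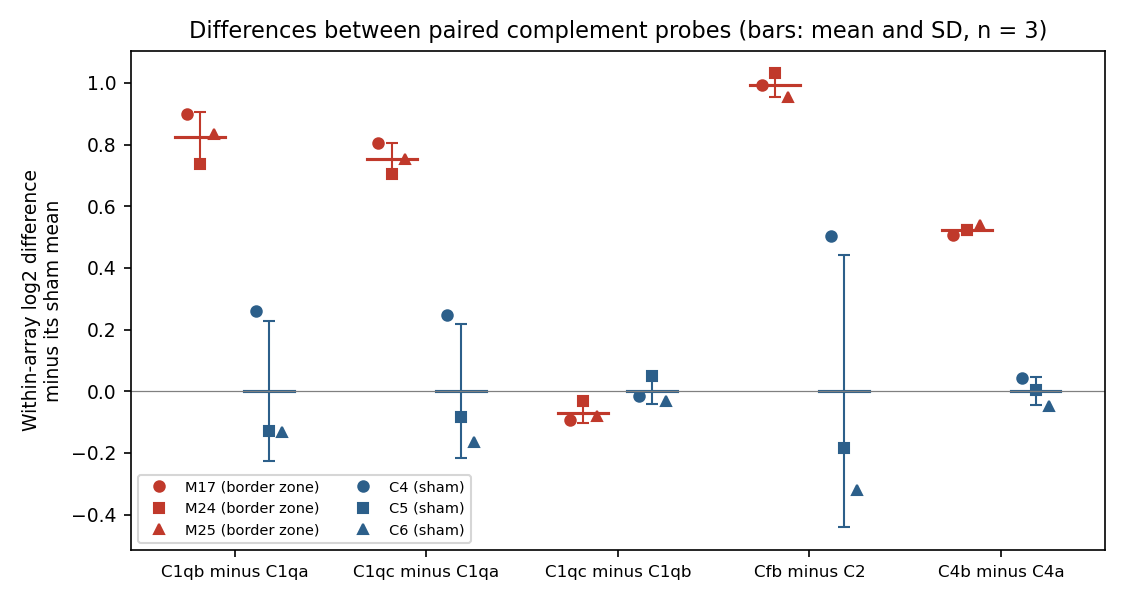
Within-array log2 difference between paired complement probes, minus its mean over the sham arrays, for the 3 border-zone and 3 sham arrays. Points are arrays, horizontal bars are means and error bars are SD (n = 3). The border-zone arrays lie above the sham arrays for C1qb minus C1qa, C1qc minus C1qa, Cfb minus C2 and C4b minus C4a, and overlap them for C1qc minus C1qb. Sham C4 is the sham array nearest to the border zone for these 4 differences.

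C1qc lies between C1qa and C1qb on the chromosome, but its start site had no entry. C1qa and C1qb gave different measurements, and C3 had the largest rise of the 8 genes. The sequences before the start sites of C1qa, C1qb and C3 are therefore shown. They are the 250 bases upstream of the start in RefSeq's table for build GRCr8, all on the minus strand: chr5:154419934-154420183 for C1qa, chr5:154407828-154408077 for C1qb and chr9:2201340-2201589 for C3. Of the 9 genes, 4 had an entry (C3ar1 is the other).
C1qa: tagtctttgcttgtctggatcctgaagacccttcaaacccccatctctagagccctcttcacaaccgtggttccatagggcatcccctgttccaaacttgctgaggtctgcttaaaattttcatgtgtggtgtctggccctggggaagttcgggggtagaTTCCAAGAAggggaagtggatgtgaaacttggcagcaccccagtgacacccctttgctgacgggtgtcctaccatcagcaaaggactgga
C1qb: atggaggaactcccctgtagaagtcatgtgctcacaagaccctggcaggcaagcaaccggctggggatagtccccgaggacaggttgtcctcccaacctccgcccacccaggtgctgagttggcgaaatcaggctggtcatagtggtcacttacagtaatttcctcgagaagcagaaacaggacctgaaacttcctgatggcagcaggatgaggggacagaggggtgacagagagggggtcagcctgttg
C3: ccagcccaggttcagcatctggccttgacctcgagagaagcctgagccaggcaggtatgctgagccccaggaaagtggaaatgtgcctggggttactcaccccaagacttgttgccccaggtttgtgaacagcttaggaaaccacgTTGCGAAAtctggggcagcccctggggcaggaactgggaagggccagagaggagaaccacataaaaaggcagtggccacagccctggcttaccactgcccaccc
Capitals mark matches to motifs of factors that act in inflammation, each searched on both strands. In C1qa the match is TTCCAAGAA, to the STAT motif TTCNNNGAA, 90 to 82 bases before the start, and 7.67% of all 33469 promoters in the table hold that motif. In C3 the match is TTGCGAAA, to the C/EBP motif TTGCNNAA, 104 to 97 bases before the start, and 9.22% of promoters hold it. C1qb has no capitals, since none of the letters searched are in its window. The PU.1 motif GAGGAAGT (in 2.04% of promoters) and the TATA box TATAAA (12.9%) were not among the letters of these 3 windows, nor were the NF-kappaB and IRF motifs searched. No matches overlapped, and a match describes letters, not a bound site.

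C3, the central protein of the cascade, had levels of 0.07, -0.20 and -0.04 on M17, M24 and M25, against -0.84, -1.03 and -1.40 on C4, C5 and C6. The groups were apart, with a gap of more than the range of either group. It rose by a log2 fold change of 1.04 ± 0.18 (adjusted p = 0.0156 in limma), or 2.05-fold. Against C4 alone the difference was 0.79 ± 0.14 and passed (adjusted p = 0.0422). C3 was the only one of the 8 genes for which M24 was below M17.

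Cfb encodes factor B, which joins C3b to form the alternative pathway convertase, and C2 encodes its classical pathway counterpart. The genes are neighbours, with 0 coding genes between them. Cfb had levels of 0.15, 0.69 and 0.42 in the border zone, against -0.07, -0.53 and -0.66 in sham, and rose by 0.84 ± 0.22 (adjusted p = 0.0453 in limma), or 1.79-fold. M17 and C4 were the nearest arrays of the 2 groups, and against C4 alone the difference was 0.49 ± 0.24 (adjusted p = 0.222). C2 had levels of -0.37, 0.12 and -0.07 in the border zone, against -0.11, 0.11 and 0.13 in sham, so the groups overlapped. Its log2 fold change was -0.15 ± 0.17 (95% interval -0.56 to 0.26, adjusted p = 0.546). Cfb minus C2 within each array was 0.53, 0.57 and 0.49 in the border zone, against 0.04, -0.65 and -0.78 in sham. These did not overlap (exact permutation p = 0.1, 0.15 adjusted over 6 pairs), and the shift was 0.99, or 0.49 against C4.

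C1s had levels of 4.07, 4.56 and 4.38 in the border zone, against 3.80, 3.80 and 3.90 in sham. The groups did not overlap, but M17 was only a little above the highest sham array. The log2 fold change was 0.50 ± 0.15 (95% interval 0.13 to 0.88), with an adjusted p of 0.0696 in limma, and 0.54 ± 0.22 against C4. Its neighbour and partner protease C1r behaved similarly, with 0.33 ± 0.11 (adjusted p = 0.0851). C1s minus C1r overlapped between the groups.

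C3ar1, the receptor for C3a on myeloid cells, was the only 1 of the 8 genes not measured above background throughout. It had levels of -5.00, -4.49 and -4.73 in the border zone, all well above background, and -4.33 on sham C4, also above it. On C5 (-5.75) and C6 (-4.63) it was not well above background. The log2 fold change of 0.16 ± 0.39 (adjusted p = 0.786) therefore rests on 1 measured sham array, and against that array it was -0.41 ± 0.23 (adjusted p = 0.278). No rise or fall of this receptor was detectable.

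Spread among the border-zone arrays was shared by most of the genes. M24 was above M17 for 7 of the 8 genes, by 0.32 (C1qb) to 0.54 (Cfb), beside 45.7% of all probes. M24 also held far less red cell signal, with a summed level of red cell and platelet markers of 8.73, against 64.3 on M17 and 47.7 on M25, most of it from the haemoglobin gene Hbb. Whether these go together was not tested.

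Other genes of the cascade were read from the same fit. Of 50 listed, 41 had a probe, 11 were not above background on any array and 28 were tested. Beside 9.01% of all probes that rose and 10.3% that fell, 9 of these 28 rose and 2 fell. The middle of their values was a log2 fold change of 0.34 (median; 0.36 with C4 as the only sham array), and 7 rose and 2 fell with scan as a block. Without M25, 2 rose and 2 fell, beside 1.59% of all probes higher and 1.24% lower. In the main fit the groups did not overlap for 13 of the 28 that were higher and 3 that were lower, beside 20.9% and 22.8% of all probes. The counts by role and by cell type below are to be read beside the shares of all probes, 9.01% higher and 10.3% lower.

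**Figure D3:**
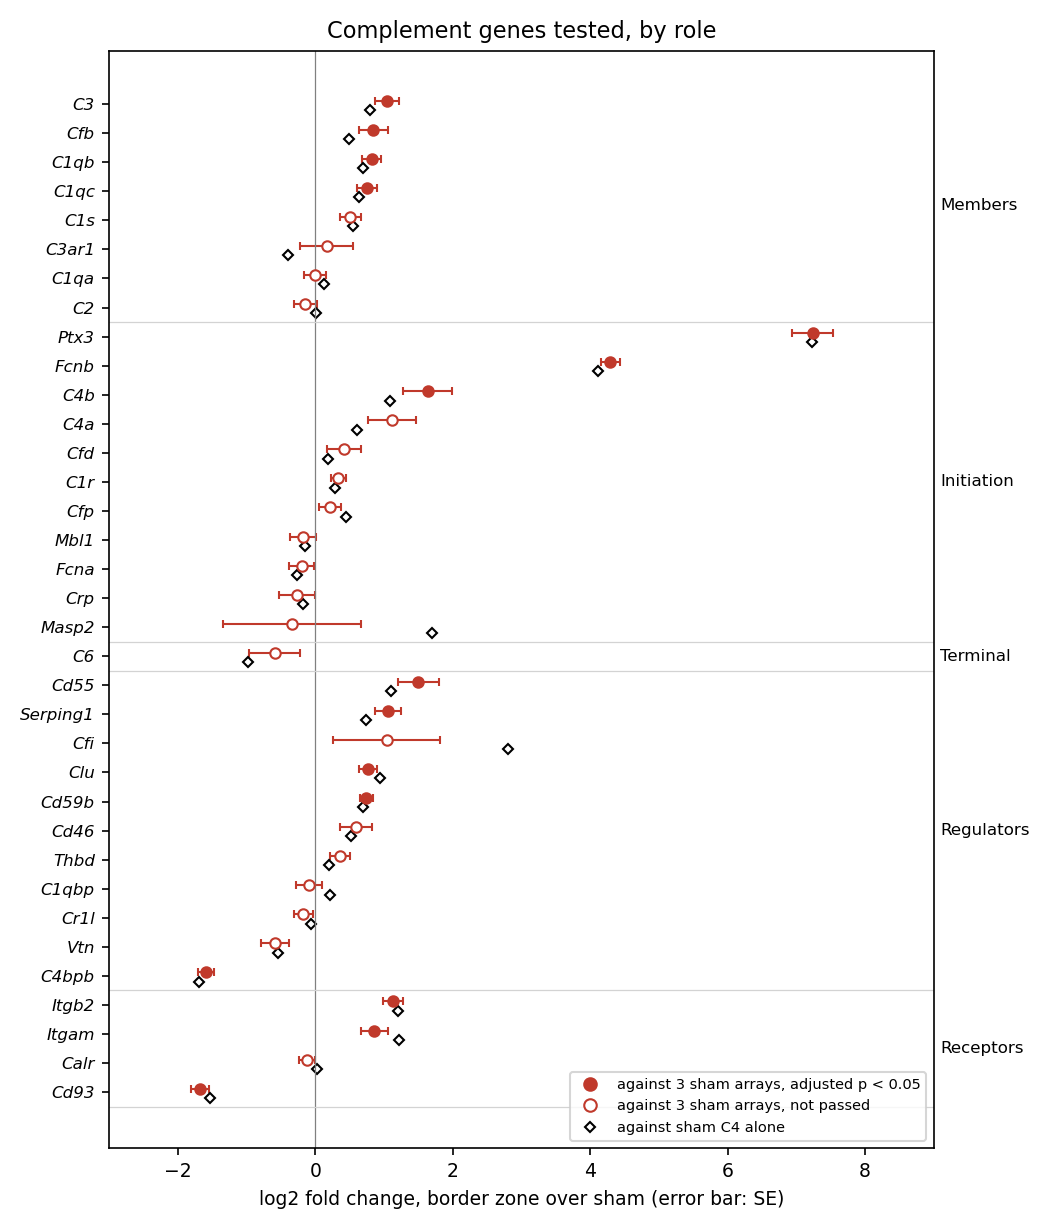
Log2 fold change, border zone over sham, of complement genes tested, by role, without 1 regulator that is not reported here. Circles with SE bars are the comparison of 3 with 3 arrays (filled where the adjusted p was below 0.05), and diamonds are the comparison with sham C4 alone. Ptx3 and Fcnb lie far to the right of all others, and C4bpb and Cd93 are the filled circles left of 0.

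Among 11 tested genes of initiation and the convertases, 3 rose and none fell in limma (0 lower at an unadjusted p under 0.05). Fcnb, a ficolin of myeloid cells that starts the lectin pathway, had levels of 0.60, 0.45 and 0.49 in the border zone, against -3.60, -3.76 and -3.98 in sham. It rose by 4.29 ± 0.14 (adjusted p = 0.000371; 4.11 against C4), or 19.6-fold, with 2 of 3 sham arrays well above background, and passed whichever array was left out. With normexp background correction its log2 fold change was 2.74 (adjusted p = 0.00177). The other ficolin, Fcna, had a log2 fold change of -0.20 ± 0.18 (adjusted p = 0.469). The long pentraxin Ptx3, which binds C1q, rose by 7.24 ± 0.30 (adjusted p = 0.000648). C4b, the source of the other subunit of the classical convertase, rose by 1.64 ± 0.36 (adjusted p = 0.0305), but the difference was 1.08 and did not pass against C4 (adjusted p = 0.182). C4a, a close copy, had 1.11 ± 0.35 (adjusted p = 0.0739), and since the copies are alike in sequence, their probes may share signal. The serum lectins Mbl2 and Colec10 and the protease Masp1 were below background on every array.

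The terminal pathway, which builds the pore, was hardly measured. C8a and C9 were below background on every array, and the complement gene C6 had a log2 fold change of -0.60 ± 0.37 (adjusted p = 0.289 in limma).

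Of 12 tested regulators, 4 rose and 1 fell. Serping1, the C1 inhibitor that blocks C1r and C1s, had levels of 3.35, 3.71 and 3.52 in the border zone, against 2.79, 2.33 and 2.30 in sham, and rose by 1.06 ± 0.18 (adjusted p = 0.0164). Clusterin (Clu), an inhibitor of the terminal complex, rose by 0.77 ± 0.13 (adjusted p = 0.0160). Cd59b, a membrane inhibitor of pore assembly, had levels of 1.06, 1.07 and 1.06, against 0.37, 0.33 and 0.26, and rose by 0.74 ± 0.10 (adjusted p = 0.00802). Clu and Cd59b also passed against C4 (adjusted p = 0.0242 and 0.0259), while Serping1 did not (0.74, adjusted p = 0.0662). Cd55, which dissociates convertases, passed (adjusted p = 0.0238) with only C4 of the sham arrays well above background; against C4 the log2 difference was 1.097 and did not pass (adjusted p = 0.1297), and with normexp background correction the log2 fold change was 0.33 (adjusted p = 0.335). C4bpb, the beta chain of the C4b-binding protein, fell: its levels were -3.05, -3.20 and -3.09 in the border zone, against -1.41, -1.64 and -1.51 in sham, a log2 fold change of -1.59 ± 0.12 (adjusted p = 0.00162; -1.70 against C4, adjusted p = 0.0114). Its partner chain C4bpa was below background on every array. The rodent C3 regulator Cr1l had a log2 fold change of -0.18 ± 0.14 (adjusted p = 0.388).

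Of 4 other receptors tested, 2 rose and 1 fell. Itgb2, the beta chain shared by complement receptors CR3 and CR4, had levels of 0.28, -0.08 and 0.06 in the border zone, against -1.11, -1.14 and -0.88 in sham. It rose by 1.13 ± 0.14 (adjusted p = 0.00697; 1.19 against C4). Itgam, the alpha chain of CR3, passed (0.86 ± 0.20, adjusted p = 0.0344 in limma), but it was tested through the border zone alone. No sham array was well above background, so no fold is given. Against C4 the log2 difference of the readings was 1.22, which is not a lower bound. With normexp the direction for Itgam turned, to -0.53 (adjusted p = 0.190 in limma). Cd93, an endothelial and myeloid glycoprotein first described as a C1q receptor, had levels of 2.24, 1.98 and 2.09 in the border zone, against 3.63, 3.83 and 3.89 in sham. It fell by 1.69 ± 0.13 on the log2 scale (adjusted p = 0.00197; -1.53 against C4, adjusted p = 0.0162). The border-zone and sham arrays were far apart for C4bpb and Cd93, and both passed whichever array was left out.

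Markers of the cells that can make or carry complement were summed on the linear scale for each array. Neutrophil markers (7 of 8 tested rose, led by S100a8 and Csf3r) summed to 4.97 to 5.26 in the border zone, against 0.203 to 0.473 in sham. S100a8 gave 75.54% to 80.92% of the sum in the border zone and 28.3% to 41.67% in sham. Without S100a8 the sums were 1.004 to 1.223, against 0.1453 to 0.2767. Of the 7, only S100a8 was well above background on all sham arrays, the others being tested through the border zone alone, and with normexp 1 of 8 rose. Monocyte markers (5 of 9 rose and 1 fell) summed to 54.0 to 57.6 in the border zone, against 14.7 to 21.0 in sham, but the lysozyme gene Lyz2 gave 85.1% or more of the sum on every array. Without it the sums were 6.96 to 7.38 in the border zone, against 1.73 to 2.19 in sham. Fcnb belongs to this list and, with Clec4e, led it, but both were tested through the border zone alone. On the sham arrays Fcnb was well above background on 2 of 3 and Clec4e on 1, while the other 3 that rose were so on all. Leaving out 1 array, Clec4e passed in 2 of 6 fits. Tissue macrophage markers summed to 20.5 to 21.7, against 18.5 to 22.7, so that the groups overlapped. The brightest of them, Csf1r, gave 26.47% to 28.06% of the sum in the border zone and 37.28% to 41.29% in sham. Without Csf1r the sums were 14.95 to 15.58 in the border zone, against 14.21 on C4, 11.98 on C5 and 11.54 on C6, and did not overlap. Of 9 tested, Lyve1 and Mrc1 rose and Trem2 and Adgre1 fell, and Cd163 was below background throughout. C1q is a product of macrophages, and Itgb2, Itgam and Fcnb are products of neutrophils and monocytes. The part of these cells in the complement values was not tested.

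**Figure D4:**
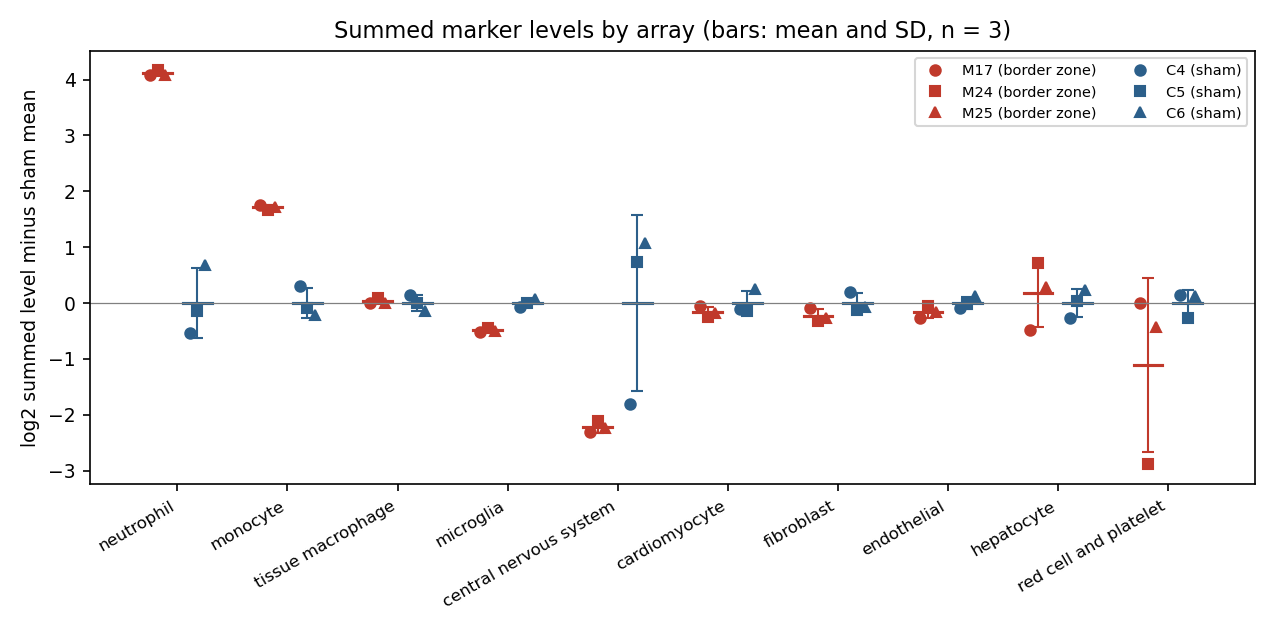
Log2 of the summed linear level of each marker list on each array, minus its mean over the sham arrays. Points are arrays, horizontal bars are means and error bars are SD (n = 3). Neutrophil and monocyte sums are higher on all border-zone arrays, tissue macrophage sums overlap, central nervous system sums are higher on C5 and C6 than on C4, and red cell and platelet signal is low on M24.

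Microglia, the brain's macrophages, are rich in C1q, and C5 and C6 held nervous tissue transcripts. Of 7 microglia markers tested, 5 fell and none rose in the border zone (0 higher at an unadjusted p under 0.05), led by P2ry12 (-2.20 ± 0.23, adjusted p = 0.00413; -1.99 against C4, adjusted p = 0.0380) and Gpr34 (-1.63 ± 0.17, adjusted p = 0.00417; -1.72 against C4, adjusted p = 0.0184), and P2ry13 was below background on every array. With scan as a block 2 of the 7 fell, and without M25 also 2. Over the 9 measured, C4 minus the mean of C5 and C6 had a median of -0.32, and for C1qa, C1qb and C1qc it was -0.20, 0.20 and 0.17. Central nervous system markers summed to 1.62 to 1.88 in the border zone, against 2.31 on C4 and 13.5 or more on C5 and C6, and 2 of 7 tested fell, led by Gad1. In the hepatocyte list none of 8 passed in limma (0 at an unadjusted p under 0.05), and Ahsg and Apoa2 were below background on every array. Fibroblast markers (1 of 8 rose, Tcf21, and 3 fell, led by Mfap4 and Col3a1) summed to 120.4 to 140.1 in the border zone, against 136.7 to 172.8 in sham. Endothelial markers summed to 31.1 to 36.4, against 35.3 to 40.8, so that the groups overlapped, and 2 of 6 fell (Emcn and Cldn5). The brightest of them, Esam, gave 50.47% to 53.63% of the sum in the border zone and 35.31% to 40.88% in sham. Without Esam the sums were 14.43 to 18.03, against 22.83 to 24.13, and did not overlap. All border-zone arrays were above all sham arrays for 2 of the 6 and below them for 3, beside 20.9% and 22.8% of all probes. The 2 that were above, Pecam1 (0.31 ± 0.11) and Esam (0.30 ± 0.14), did not pass. Whether the fall of Cd93 goes with these markers was not tested. Of 6 red cell and platelet markers 1 rose, Pf4.

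The coding genes whose profile over the 6 arrays was most like that of the mean of the 3 C1q chains, out of 10982, were Filip1, Fnbp4, H3f3b and Nudcd1. Their root mean square differences were 0.029 to 0.046 on the log2 scale after centring, and their log2 fold changes 0.475 to 0.541. Since C1qb and C1qc rose and C1qa did not, that mean is not the profile of any 1 chain. For C3 the nearest genes were the kinase gene Sgk2, Jade2, Utp14a and the nucleolar protein gene Npm1, at 0.038 to 0.084. This is a description of 6 arrays, of which 4 share a scan, and all were scaled in the same way.

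**Figure D5:**
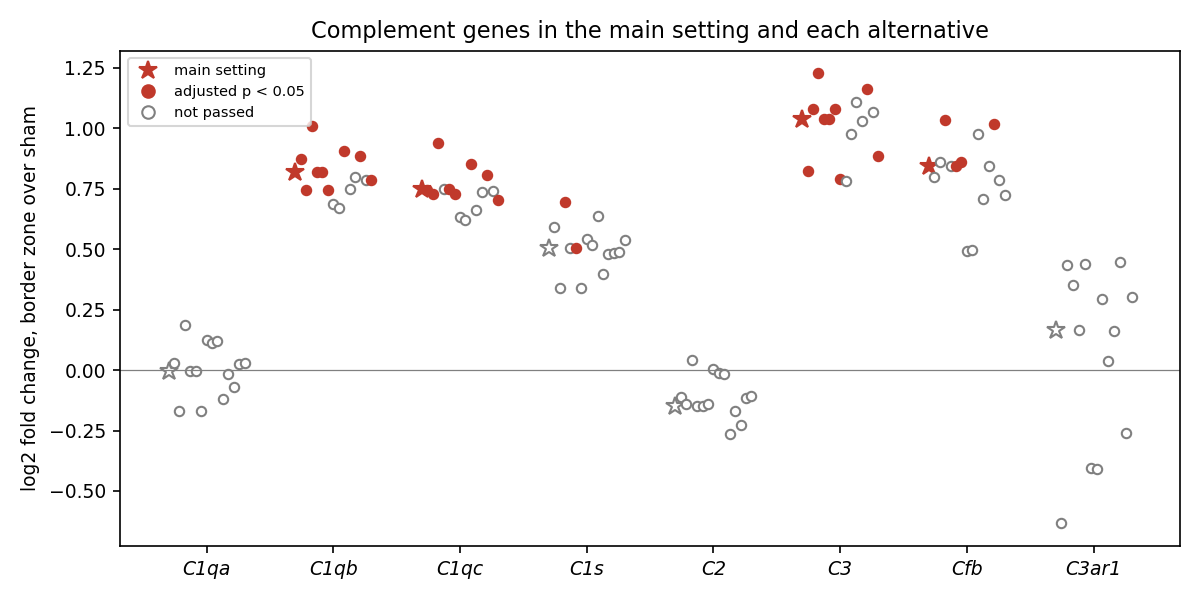
Log2 fold change, border zone over sham, of each complement gene in the main setting (star) and in each alternative (circles), filled where the adjusted p was below 0.05. The estimates for C1qb, C1qc, C1s, C3 and Cfb stay above 0 in all, C1qa and C2 lie between -0.27 and 0.19, and C3ar1 takes both signs.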

How the data were processed

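Per the file headers, the authors' spot signals are intensity values from Agilent Feature Extraction 11.0.1.1, background-subtracted and detrended within each 1-colour array and not normalized between arrays; the array design names build rn4. The deposited table of log2 values, with medians of 5.54, was used as an alternative (24415 of its 24529 rows matched a probe). Control spots and feature outliers were dropped, and repeated spots averaged; of 24684 probes, 24614 were carried and 17930 tested. Log2 signals minus the 75th percentile of each array were tested with limma 3.58.1 in R 4.3.3 (lmFit, eBayes, two-sided). The fit was run on simulated independent arrays with log2 changes of 2 and 4, of which 75% and 90% were recovered. Smaller changes, such as those of the complement members, were not simulated. Tables and figures used Python 3.11.15. Scan as a block equals comparison with C4 alone, with 2 residual degrees of freedom and no sham spread. The normexp alternative used the median spot signal. Probes were named by RefSeq accession (GRCr8 table); a gene is its brightest probe. No label says that arrays of a group are more than separate samples. Members and lists were chosen with earlier results of these data known. The genes named were all members, other complement genes that passed, up to 2 leading markers a list, markers below background, and the 4 nearest profiles; the rest were named after their values were seen. The number of arrays limits precision. Some genes of the lists are counted but not reported here by name.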

Additional observations from a re-analysis of the deposited data

How the results depend on the processing

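Alternatives moved counts of calls and some fold changes. Of the 8 complement genes, 4 rose in the main setting, 2 without a filter on dim probes, 1 with scan as a block, and 0 with scan as a block and without M25 (1 at an unadjusted p under 0.05 in limma); leaving out 1 array gave 0 to 4, with 0 without M24, M25 or C5. C3 passed in 9 of 14 alternatives, C1qb in 9, C1qc in 8 and Cfb in 4. C1s passed with median scaling (0.69, adjusted p = 0.0452) and on probes above background on all arrays (adjusted p = 0.0362). Signs changed where estimates were near 0: C1qa was 0.031 with normexp, 0.19 with median scaling, 0.13 with scan as a block, 0.11 with that and without M25, and -0.12 to 0.12 leaving out 1 array. C2 was 0.040 with median scaling and 0.0060 with scan as a block. C3ar1 was -0.63 with normexp, -0.41 with scan as a block, -0.41 with that and without M25, and -0.26 to 0.45 leaving out 1 array. Itgam was -0.53 with normexp, which also took Cd55 to 0.33 and Fcnb to 2.74, and Cfb was 0.49 with scan as a block. Other complement genes gave 9 rises, 2 with scan as a block and without M25, and 2 to 11 leaving out 1 array; they gave 2 falls, and 0 with scan as a block and without M25. Marker genes gave 16 rises, 9 with normexp, 10 on probes above background on all arrays, 7 with scan as a block and without M25, and 9 to 21 leaving out 1 array. Their 15 falls became 0 with scan as a block and without M25, and 3 to 28 leaving out 1 array. Over all probes, 1615 rose (1004 with normexp, 791 without a filter, 66 with scan as a block and without M25, 286 to 3739 leaving out 1 array) and 1845 fell (929 with median scaling, 1035 without a filter, 11 with scan as a block and without M25, 223 to 3694 leaving out 1 array). The median of all probes had its log2 fold change at 0.16 under median scaling, -0.35 under normexp and -0.26 with no filter, against -0.03; median scaling gave 1935 rises beside its 929 falls, against 1615 and 1845. The cause of these shifts was not tested. Averaging probes changes nothing here, as each member has 1. No paired analysis was possible because the labels give no shared replicate numbers.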
